A study of Mus musculus with 9 samples.

Results

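The specific granule genes described here are Ltf, Camp, Ngp, Lcn2, Chil3, Cd177 and Hp. They were taken by gene name from a table of expression levels in neutrophils, in which each name matched 1 row, giving 7 of 46517 genes. All 7 exceeded a log2 FPKM of 0 in every library, passed the filter on low values and were among the 7794 genes tested. Neutrophils were sorted from C57BL/6 mice, on day 27 after a pancreatic ductal adenocarcinoma (PDAC) cell line had been placed in the pancreas (orthotopic transplantation, OT mice). Per the study's methods the line came from a genetically engineered mouse model of PDAC, so every tumor in these data grew from 1 line in mice with no engineered allele of their own. The sort took live CD45+ cells that lacked CD3, B220 and NK1.1 and carried Ly6G and Ly6C. The bone marrow libraries are labelled as Ly6G.hi and the blood and tumor libraries as Ly6G+, and each compartment had 3 libraries, each made from a pool of 5 mice per the study's methods. The figure legends of the study give 3 independent experiments, so the spread between libraries may hold differences between experiments. Which library came from which experiment is not stated in the sources used here. The age of the mice is not given in the sources used here, and no mice without tumors were sequenced in the libraries used here.

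Neutrophils pack ready-made proteins into granules that are filled in sequence while the cell matures in the bone marrow. Azurophil granules are filled first, at the promyelocyte stage, specific granules next, at the myelocyte and metamyelocyte stages, and gelatinase granules after them. Transcription of specific granule genes depends on the transcription factor C/EBP-epsilon and falls as the cell matures, so a circulating neutrophil carries the proteins while holding little of their mRNA. Lactoferrin (Ltf) binds iron, the cathelicidin CRAMP (Camp) kills microbes, neutrophilic granule protein (Ngp) is a relative of the cathelicidins and cystatins, and lipocalin-2 (Lcn2) captures bacterial siderophores. Chitinase-like 3 (Chil3, also known as Ym1) is a lectin without chitinase activity, CD177 is a surface protein held on the specific granule membrane, and haptoglobin (Hp) binds free hemoglobin.

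Levels are log2 FPKM, the log2 of reads scaled to gene length and library size, as the authors deposited them. Libraries held between 4580807 and 7949367 reads assigned to genes, which were recovered from the steps in the low values. Correlations of log2 FPKM over the genes tested were 0.875 to 0.933 between libraries of the same compartment and 0.415 to 0.793 between compartments. The 10 neutrophil markers fixed for the check (S100a8, S100a9 and Csf3r among them) were detected in every compartment, and their summed level was 33520 to 35316 RPM (reads scaled to library size) for bone marrow, 33321 to 35892 for blood and 17555 to 22353 for tumor. Il1b, with 46868 to 75629 reads per tumor library against 13512 to 17247 per blood library, made up much of the tumor sum. By gene, 9 of the 10 were lower and 1 higher in tumor than in blood (median log2 fold change -1.70), and 7 were lower and 1 higher in tumor than in bone marrow (-1.91). Over all genes tested, 34.5% were lower and 28.1% higher in tumor than in blood, and 32.9% and 22.4% in tumor than in bone marrow. Ly6g, the gene of the sorting antigen, averaged 7.62 for bone marrow, 5.08 for blood and 3.40 for tumor in log2 FPKM, and was looked at after its values were seen. In the tumor libraries, 10 of 10 markers of tumor epithelium were higher than in bone marrow and blood, with a summed level of 2926 to 6259 RPM against 8.02 to 11.4 and 21.4 to 141 and with Cldn4 at 0 in bone marrow. The study describes the compartments as taken from the same mice, but the sources used here do not say that a replicate number marks a shared pool, and p-values measure the spread between these pools.

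The 7 genes together took a large share of the bone marrow libraries and little of the others. They held 9.10%, 9.85% and 9.85% of the reads in the 3 bone marrow libraries, 0.753%, 0.805% and 0.828% in blood and 1.38%, 0.892% and 1.34% in tumor. Bone marrow stood far above both other compartments, and every tumor library was above every blood library, the second tumor library by little. The means were 9.60% ± 0.434 for bone marrow, 0.795% ± 0.0385 for blood and 1.21% ± 0.272 for tumor (SD, n = 3). Counting error was small beside these differences, the 95% Wilson interval being 0.886 to 0.899% in tumor 2 and 0.821 to 0.836% in blood 3, and it covers counting error only. In an exact two-sided permutation test each pair of compartments gave p = 0.1, the smallest that 3 against 3 libraries allow. Tumor exceeded blood by 0.410 percentage points of reads, but the order of tumor and blood depended on the measure, since the share of summed FPKM was lower in tumor by a difference of -0.292 percentage points. With FPKM rescaled to exon length the shares were 2.25%, 1.54% and 2.29% in tumor and 1.40%, 1.56% and 1.65% in blood, so 2 tumor libraries were above blood and tumor 2 lay within it. In bulk RNA, fewer cells that express a gene and less RNA of that gene per cell cannot be told apart.

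**Figure D1:**
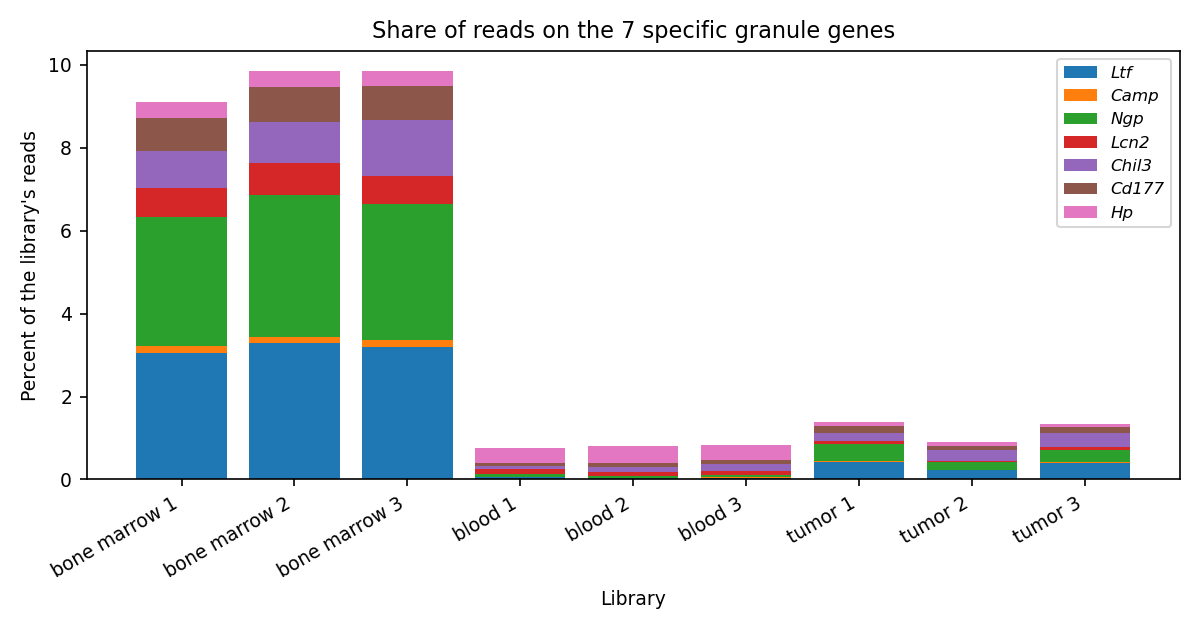
Percent of each library's reads on the 7 specific granule genes, with 1 stacked bar per library and 1 color per gene. Ltf and Ngp make up most of the bone marrow bars, which reach 9.10 to 9.85%, whereas blood stays at 0.753 to 0.828% and tumor at 0.892 to 1.38%.

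The genes did not follow 1 order over the compartments. Ltf, Camp and Ngp were highest in bone marrow, intermediate in tumor and lowest in blood. Lcn2 was highest in bone marrow and lowest in tumor. Chil3 and Cd177 were high in bone marrow and overlapped between blood and tumor, while Hp overlapped between bone marrow and blood and was lowest in tumor. The plot of levels by library shows these orders side by side.

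**Figure D2:**
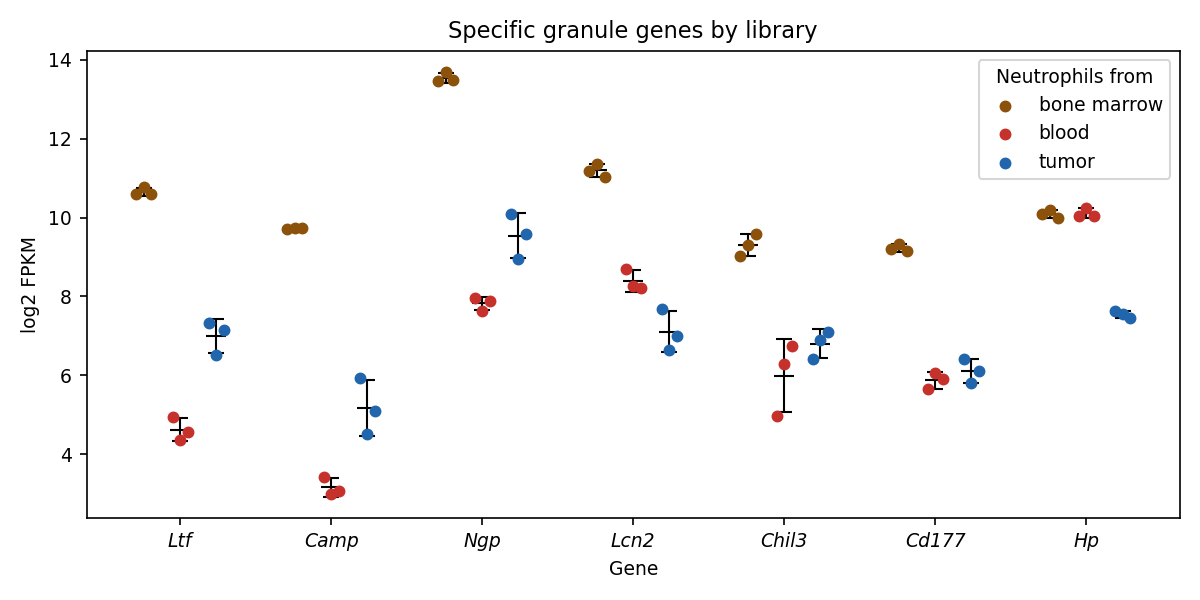
log2 FPKM of the 7 genes in the 9 libraries, with points for libraries, colored by compartment, and bars for the mean ± SD (n = 3). Ltf, Camp and Ngp step down from bone marrow to tumor to blood, Lcn2 steps down from bone marrow to blood to tumor, and Hp drops in tumor alone.

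Ltf, Camp and Ngp all lie on chromosome 9 of the mouse genome (GRCm38), as do many other genes. Their promoters are shown because these 3 genes shared an order over the compartments, and that of Lcn2 because it did not share it. Each sequence runs 5′ to 3′ on the strand of the gene, from 250 bases before to 49 bases past the RefSeq start base, as given by RefSeq for GRCm38.p6. Capitals mark the C/EBP core TTGCNNAA, searched on both strands, and the TATA-like letters ATAAA where they begin 40 to 20 bases before the start, searched on the strand of the gene; ATAAA elsewhere is left in lower case.
Ltf: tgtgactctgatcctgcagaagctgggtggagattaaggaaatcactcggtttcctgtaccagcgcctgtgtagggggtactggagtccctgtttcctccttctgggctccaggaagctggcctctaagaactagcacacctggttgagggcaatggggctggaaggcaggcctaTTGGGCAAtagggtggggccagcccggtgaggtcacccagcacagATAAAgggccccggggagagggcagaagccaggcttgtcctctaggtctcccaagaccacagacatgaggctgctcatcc
Camp: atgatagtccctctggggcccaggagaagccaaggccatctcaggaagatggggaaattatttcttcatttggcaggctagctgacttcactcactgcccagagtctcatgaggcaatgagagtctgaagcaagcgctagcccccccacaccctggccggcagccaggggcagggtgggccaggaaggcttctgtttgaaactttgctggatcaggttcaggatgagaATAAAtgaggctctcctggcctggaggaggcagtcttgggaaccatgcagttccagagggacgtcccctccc
Ngp: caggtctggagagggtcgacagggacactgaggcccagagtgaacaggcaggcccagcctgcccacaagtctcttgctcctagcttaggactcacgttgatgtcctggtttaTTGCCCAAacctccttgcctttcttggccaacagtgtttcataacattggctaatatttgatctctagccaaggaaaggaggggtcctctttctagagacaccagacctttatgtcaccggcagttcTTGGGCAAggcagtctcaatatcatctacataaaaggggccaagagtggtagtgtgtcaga
Lcn2: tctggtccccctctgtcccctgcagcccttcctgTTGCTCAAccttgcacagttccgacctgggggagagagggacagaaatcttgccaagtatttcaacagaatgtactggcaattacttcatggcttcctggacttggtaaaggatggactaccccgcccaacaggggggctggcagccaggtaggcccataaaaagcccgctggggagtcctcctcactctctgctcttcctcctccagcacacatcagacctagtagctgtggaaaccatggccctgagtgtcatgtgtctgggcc
The windows are chr9:111019042-111019341 on the plus strand for Ltf, chr9:109849407-109849706 on the minus strand for Camp, chr9:110419558-110419857 on the plus strand for Ngp and chr2:32387690-32387989 on the minus strand for Lcn2. The C/EBP core was found in Ltf at -75 to -68, on the minus strand and overlapping a CCAAT on that strand, in Ngp at -138 to -131 and -11 to -4, and in Lcn2 at -216 to -209, counted from the start base. Camp, whose level followed that of Ngp most closely, had no such letters in its window. Of the 6 members with a RefSeq promoter entry, 3 held the C/EBP core, against 10.8% of 32851 promoters of the same length. Within the window of 40 to 20 bases before the start, the TATA-like letters were found in 3 of the 6 (Ltf, Camp and Cd177) against 4.25% of all promoters. The letters ATAAA also occurred outside that window in Ngp, Lcn2 and Chil3, where they were not counted. AGGAAG, the core bound by PU.1, was found in 4 of the 6 against 35.4%, and CCAAT in 3 of the 6 against 37.4%, both on either strand. These motifs were picked after the sequences were seen, and a match is a description of letters and not of binding. The windows start from RefSeq, whose start differs from that of GENCODE for every gene printed here (Ltf, Camp, Ngp and Lcn2). The positions and the TATA-like window therefore depend on the choice of start.

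Ltf (ENSMUSG00000032496.6, chr9:111019271-111042767, plus strand, protein coding) encodes the iron-binding protein that defines specific granules. Its log2 FPKM was 10.60, 10.78 and 10.59 for bone marrow, 4.94, 4.37 and 4.57 for blood and 7.34, 6.51 and 7.15 for tumor. The compartments did not overlap, and the lowest tumor library was well above the highest blood library. In reads, Ltf fell from between 233192 and 243442 per library in bone marrow to between 2624 and 2846 in blood, and stood at 16196 to 26540 in tumor, so no level rested on few reads. Against bone marrow, Ltf was 65.2-fold lower in blood (log2 fold change -6.03 ± 0.23 SE, limma adjusted p = 5.88e-06) and 12.6-fold lower in tumor (-3.66 ± 0.23, adjusted p = 9.95e-06). Tumor was 5.17-fold above blood (2.37 ± 0.23, limma adjusted p = 6.74e-05).

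Camp (ENSMUSG00000038357.10, chr9:109847379-109849617, minus strand, protein coding) encodes CRAMP, the only mouse cathelicidin. Levels of Camp were log2 FPKM of 9.72, 9.73 and 9.75 for bone marrow, 3.43, 2.99 and 3.07 for blood and 5.93, 4.51 and 5.09 for tumor. The bone marrow libraries were nearly equal, blood was uniformly low and tumor lay between them with the widest spread. Blood levels rested on 95, 99 and 88 reads and tumor levels on 847, 386 and 606, against at least 10791 in bone marrow. Camp was 95.2-fold lower in blood than in bone marrow (log2 fold change -6.57 ± 0.32 SE, limma adjusted p = 1.37e-05), the largest fold of the 7 genes. In tumor it was 23.5-fold below bone marrow (-4.56 ± 0.32, limma adjusted p = 1.57e-05) and 4.04-fold above blood (2.02 ± 0.32, adjusted p = 0.000829).

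Ngp (ENSMUSG00000032484.8, chr9:110419747-110423012, plus strand, protein coding) encodes a small secreted granule protein. Ngp had log2 FPKM of 13.46, 13.69 and 13.48 for bone marrow, 7.96, 7.64 and 7.89 for blood and 10.10, 8.95 and 9.58 for tumor. Again the 3 compartments did not overlap, with tumor between the others. Ngp was 52.5-fold lower in blood (log2 fold change -5.72 ± 0.27 SE, limma adjusted p = 1.37e-05) and 16.0-fold lower in tumor (-4.00 ± 0.27, adjusted p = 1.50e-05) than in bone marrow. It was 3.28-fold higher in tumor than in blood (1.71 ± 0.27, limma adjusted p = 0.000913).

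As a share of the mean bone marrow FPKM, blood kept 1.55% ± 0.315 of Ltf, 1.06% ± 0.178 of Camp and 1.91% ± 0.218 of Ngp, and tumor 8.16% ± 2.25, 4.61% ± 2.30 and 6.57% ± 2.52 (SD, n = 3). All 3 therefore stood at a few percent of the bone marrow level in tumor and at 1 to 2% in blood. In tumor the first library was the highest and the second the lowest for each of these genes. The markers of proliferating granulocyte precursors (Mki67, Top2a, Cdk1, Ccnb1, Birc5 and Tuba1b) had an order of their own, with a summed level of 651 to 883 RPM for bone marrow, 77.1 to 96.2 for blood and 511 to 706 for tumor. Of these 6, all were lower in blood than in bone marrow, 5 were higher in tumor than in blood and 3 were lower in tumor than in bone marrow, and none was at 0 in any compartment. The shares of all genes tested in these 3 comparisons were 23.6%, 28.1% and 32.9%. Within tumor the summed level was 584, 511 and 706 RPM in libraries 1, 2 and 3. The tumor epithelium markers had the same order over these libraries, at 3858, 2926 and 6259 RPM. Library 2 was thus lowest in both lists, as for Ltf, Camp and Ngp, while the highest in both lists was library 3. The part of such precursors, of other dividing cells, or of the epithelial RNA in the tumor libraries, in the levels of Ltf, Camp and Ngp was not tested.

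Lcn2 (ENSMUSG00000026822.13, chr2:32384633-32388252, minus strand, protein coding) encodes the siderophore-binding protein that travels with lactoferrin in specific granules. Its log2 FPKM was 11.19, 11.36 and 11.04 for bone marrow, 8.71, 8.26 and 8.21 for blood and 7.67, 6.65 and 6.997 for tumor. Here blood lay between the other compartments, and the highest tumor library was below the lowest blood library. Lcn2 was 6.99-fold lower in blood than in bone marrow (log2 fold change -2.80 ± 0.27 SE, limma adjusted p = 0.000156) and 17.0-fold lower in tumor (-4.09 ± 0.27, adjusted p = 1.16e-05). It was 2.44-fold lower in tumor than in blood (-1.29 ± 0.27, limma adjusted p = 0.00338), against the direction of Ltf, Camp and Ngp. Blood kept 14.5% ± 2.89 of the bone marrow level of Lcn2 and tumor 6.13% ± 2.29 (SD, n = 3). The neutrophil markers fell alongside, with 9 of 10 lower in tumor than in blood, beside 34.5% of all genes. Mmp9, Itgam and Retnlg among them are also in the list of specific and gelatinase granule genes used below. Epithelial cells can transcribe Lcn2 as well, and the part of epithelial RNA, or of a lower share of neutrophil RNA, in the tumor level of Lcn2 was not tested.

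Chil3 (ENSMUSG00000040809.10, chr3:106147554-106167564, minus strand, protein coding) encodes a lectin made by neutrophil precursors and by some macrophages. The log2 FPKM of Chil3 was 9.03, 9.31 and 9.58 for bone marrow, 4.96, 6.28 and 6.75 for blood and 6.41, 6.90 and 7.11 for tumor. Bone marrow was apart from both others, whereas blood and tumor overlapped, with the first blood library lowest of all. Chil3 was 9.93-fold lower in blood (log2 fold change -3.31 ± 0.43 SE, limma adjusted p = 0.000693) and 5.66-fold lower in tumor (-2.50 ± 0.43, adjusted p = 0.00169) than in bone marrow. Between tumor and blood the log2 difference was 0.81 ± 0.43 (95% interval -0.19 to 1.81, limma adjusted p = 0.138), so an increase of over 3-fold and a slight decrease both lie within the interval. Leaving out blood library 3 gave 1.19 (adjusted p = 0.0409) and leaving out blood library 1 gave 0.29, so this call turned on a single blood library. With the replicate number as a block the adjusted p of the same difference was 0.0338 (limma). It also turned on the scaling, since quantile normalization and plain library totals gave 1.27 and 1.26 (limma adjusted p = 0.0276 and 0.0319), where plain totals raised the median of all genes by 0.45. The summed level of 10 macrophage and monocyte markers was 487 to 534 RPM for bone marrow, 1292 to 1498 for blood and 510 to 698 for tumor, with Ms4a7 at 0 in blood, and their part in the level of Chil3 was not tested. Chil4, a close copy of Chil3 with which reads could be shared, had 0 to 34 reads per library, far below the 2461 or more of Chil3.

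Cd177 (ENSMUSG00000052212.5, chr7:24743983-24760311, minus strand, protein coding) encodes a surface protein that pairs with the integrin Mac-1 on neutrophils. Cd177 had log2 FPKM of 9.20, 9.34 and 9.14 for bone marrow, 5.65, 6.06 and 5.92 for blood and 6.43, 5.81 and 6.11 for tumor. Bone marrow was again high, and the blood and tumor libraries were interleaved. Cd177 was 10.2-fold lower in blood (log2 fold change -3.35 ± 0.17 SE, limma adjusted p = 1.44e-05) and 8.63-fold lower in tumor (-3.11 ± 0.17, adjusted p = 5.74e-06) than in bone marrow. Tumor and blood were not distinguished, at a log2 difference of 0.24 ± 0.17 with a 95% interval from -0.16 to 0.64 (limma adjusted p = 0.255). Under quantile normalization and plain library totals it became 0.76 and 0.69 (limma adjusted p = 0.00467 and 0.00804).

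Hp (ENSMUSG00000031722.9, chr8:109575128-109579172, minus strand, protein coding) encodes the hemoglobin-binding protein haptoglobin, made mainly in liver and also stored in neutrophil granules. Its log2 FPKM was 10.09, 10.18 and 9.98 for bone marrow, 10.03, 10.25 and 10.05 for blood and 7.63, 7.54 and 7.44 for tumor. Bone marrow and blood overlapped and tumor was well below both, with little spread in any compartment. The log2 difference of blood from bone marrow was 0.02 ± 0.11, with a 95% interval from -0.24 to 0.29 (limma adjusted p = 0.898). Tumor was 5.84-fold below bone marrow (-2.55 ± 0.11, limma adjusted p = 2.97e-06) and 5.94-fold below blood (-2.57 ± 0.11, adjusted p = 2.65e-06). Blood thus kept 102% ± 9.07 of the bone marrow level of Hp, against 1.06 to 14.5% for the other 6 genes. The low level of Hp in tumor also went with the lower neutrophil markers, some of them granule genes themselves. The part of a lower share of neutrophil RNA in it was not tested.

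Counted over the members, tumor against blood gave 3 of 7 genes higher (Ltf, Camp and Ngp), where 28.1% of all genes tested were called higher, and 2 lower (Lcn2 and Hp), where 34.5% were called lower. Tumor against bone marrow gave 7 of 7 lower and 0 higher, beside 32.9% of all genes called lower. Blood against bone marrow gave 6 of 7 lower, beside 23.6% of all genes, and Hp was the exception. The median log2 fold change of the 7 was 0.81 for tumor against blood, -3.66 for tumor against bone marrow and -3.35 for blood against bone marrow, beside -0.17, -0.21 and -0.04 over all genes tested. In all, 5 of 7 were called for tumor against blood, 7 of 7 for tumor against bone marrow and 6 of 7 for blood against bone marrow, beside 62.6%, 55.3% and 44.2% of all genes, and the libraries of the same members did not overlap, beside 67.0%, 63.9% and 58.8%. The 3 comparisons share libraries and are not independent of each other. In the F-test over the 3 compartments 7 of 7 members passed, as did 73.6% of all genes tested. Higher in bone marrow than in both other compartments were 6 of 7, where 10.8% of all genes were, and above blood but below bone marrow in tumor were 3 of 7, where 1.71% of all genes were.

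**Figure D3:**
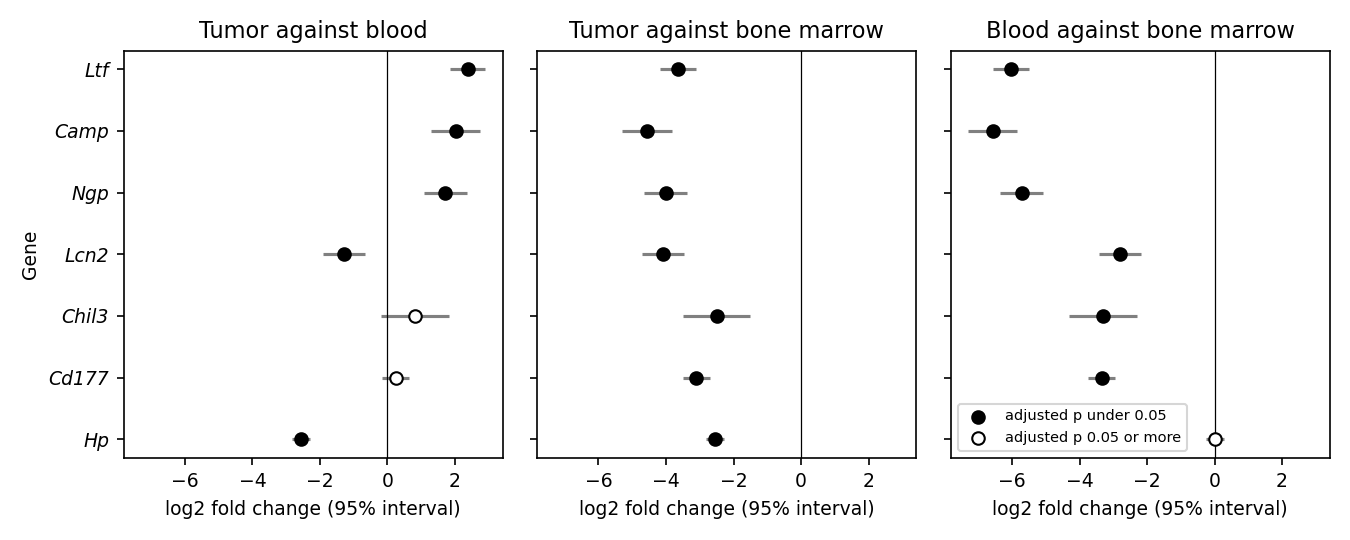
log2 fold change of each gene between compartments from limma, with 95% intervals, in 1 panel per comparison; filled points have an adjusted p under 0.05. All 7 points are below 0 for tumor against bone marrow, whereas for tumor against blood Ltf, Camp and Ngp lie at 1.71 to 2.37 and Lcn2 and Hp at -1.29 and -2.57.

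Ratios between members of the same library do not move with the scaling of that library and show how unequal the changes were. The difference of log2 FPKM of Lcn2 from that of Ltf was 0.54 ± 0.08 for bone marrow, 3.76 ± 0.13 for blood and 0.11 ± 0.25 for tumor (SD, n = 3). Relative to Ltf, Lcn2 was therefore high in blood, while bone marrow and tumor were close to each other. Hp was also highest relative to Ltf in blood, at -0.57 ± 0.06 for bone marrow, 5.48 ± 0.40 for blood and 0.54 ± 0.43 for tumor. Cd177 gave -1.43 ± 0.03, 1.25 ± 0.50 and -0.88 ± 0.17. Chil3, with more spread, gave -1.35 ± 0.30, 1.37 ± 1.17 and -0.19 ± 0.67. Ngp stayed close to Ltf throughout, at 2.89 ± 0.02 for bone marrow, 3.20 ± 0.16 for blood and 2.54 ± 0.19 for tumor, and Camp moved slightly further, at -0.92 ± 0.10, -1.47 ± 0.07 and -1.82 ± 0.36. Of 18 exact two-sided permutation tests of these ratios, 16 reached p = 0.1, the smallest possible for 3 against 3 libraries, with a Benjamini-Hochberg adjusted p of 0.113. The exceptions were both between tumor and blood, Camp with p = 0.3 and Chil3 with p = 0.2 (exact permutation test, adjusted p = 0.3 and 0.212). No test of this size can pass 0.05.

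**Figure D4:**
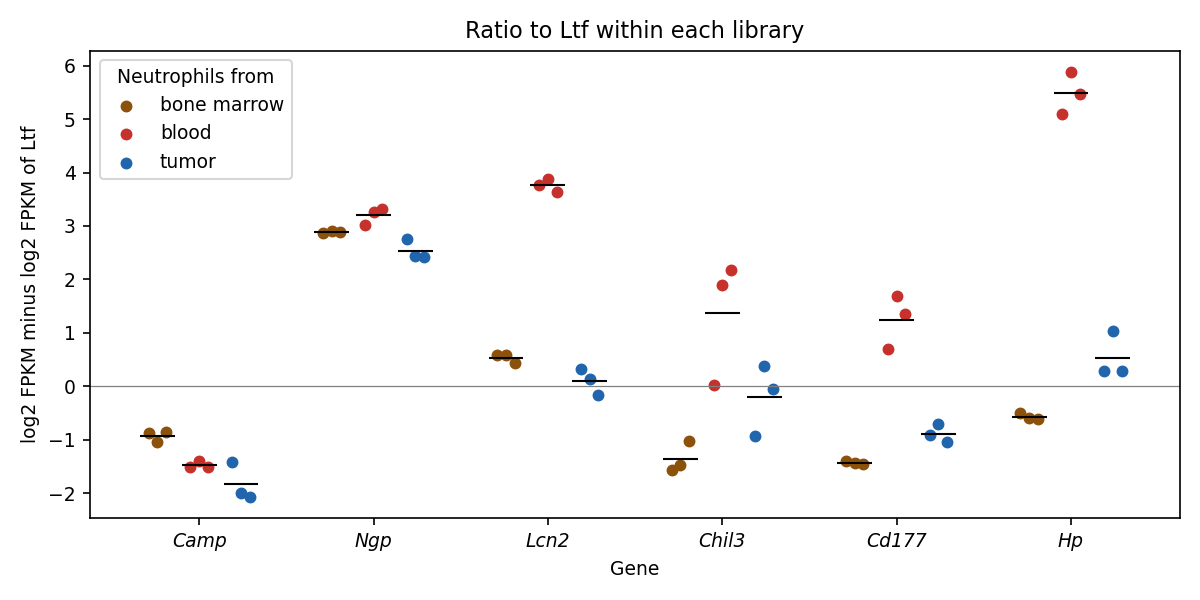
log2 FPKM of each gene minus log2 FPKM of Ltf in the same library, with points for libraries, colored by compartment, and lines for means. Blood lies above both other compartments for Lcn2, Cd177 and Hp, by up to 6.05 for Hp against bone marrow, while the 3 compartments of Ngp lie within 2.43 to 3.32.

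The FPKM divide by the genomic span of a gene, introns included, so levels were compared between genes after rescaling to exon length. On that scale Ngp ranked 1 of all genes in every bone marrow library, 80 to 109 in blood and 8 to 26 in tumor. Its mean was 32000 ± 2877 FPKM of exon length for bone marrow, 610 ± 69.6 for blood and 2097 ± 804 for tumor (SD, n = 3). Ltf ranked 3 to 6 for bone marrow, 286 to 434 for blood and 31 to 65 for tumor. Camp, at 16 to 17 in bone marrow, ranked 1463 to 1930 in blood and 210 to 575 in tumor and was the least abundant of the 7 in both. Hp ranked 15 in bone marrow but 8 to 9 in blood, where it led the members at 2787 ± 248 FPKM, and 74 to 85 in tumor. The remaining members ranked among the first 13 genes in bone marrow, with Chil3 at 7, Cd177 at 11 to 12 and Lcn2 at 12 to 13. In blood these 3 ranked 29 to 152, 164 to 212 and 100 to 139, and in tumor 15 to 37, 78 to 129 and 137 to 273. Each member was thus within the first 17 genes of the bone marrow libraries by this measure.

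Other genes of specific and gelatinase granules were lower in tumor more often than higher. Of 25 listed, 23 were tested, and 22 were lower in tumor than in bone marrow and 0 higher; the exception was Slc11a1, a metal transporter (log2 fold change -0.03 ± 0.10, limma adjusted p = 0.818). Against blood, 17 were lower in tumor and 3 were higher, and in blood against bone marrow 17 were lower and 1, Slc11a1, was higher. The medians of log2 fold change were -2.84, -1.52 and -1.43 in that order of comparisons, beside -0.21, -0.17 and -0.04 over all genes tested. The shares of all genes called lower were 32.9%, 34.5% and 23.6% in the same order, and those called higher 22.4%, 28.1% and 20.6%. The gelatinase Mmp9 followed the order of Lcn2, with means of 9.99 for bone marrow, 9.14 for blood and 7.46 for tumor in log2 FPKM, and was lower in tumor than in blood (log2 fold change -1.68 ± 0.10, limma adjusted p = 7.75e-06). Mmp25, a membrane-bound metalloproteinase, did so as well, at 5.66, 4.34 and 2.82. Anxa3, a membrane-binding protein of these granules, had the order of Ltf, at 3.32, -0.37 and 2.59, and rose in tumor over blood by 2.96 ± 0.12 (limma adjusted p = 2.65e-06). The other 2 genes called higher in tumor than in blood, named after their values were seen, were Fcnb, a ficolin (2.84 ± 0.53, limma adjusted p = 0.00209), and Itgb2l, an integrin beta chain relative (0.56 ± 0.17, adjusted p = 0.0183). Fcnb had 3, 22 and 6 reads in the blood libraries and 94, 65 and 93 in the tumor libraries, so its fold over blood rests on few reads.

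Of 12 azurophil granule genes 11 were tested, of which 10 were lower in tumor and 9 lower in blood than in bone marrow. Over all genes tested, 32.9% were lower in tumor and 23.6% lower in blood than in bone marrow. Between tumor and blood 3 were called higher and 2 lower, beside 28.1% and 34.5% of all genes. The median log2 fold change was 1.48, beside -0.17 over all genes. Serpinb1a, an inhibitor of neutrophil proteases, had the order of Ltf, with means of 7.15 for bone marrow, 2.77 for blood and 4.25 for tumor in log2 FPKM. The lower pair were Man2b1, a lysosomal mannosidase (log2 fold change -2.63 ± 0.10, limma adjusted p = 2.52e-06), and Prss57, a serine protease (-2.78 ± 0.26, adjusted p = 5.92e-05). Elane and Cd63, named after their values were seen, were the others called higher in tumor than in blood; Elane, neutrophil elastase, had 1479 to 2306 reads per bone marrow library, 0 to 9 per blood library and 10 to 31 per tumor library, so that its folds rest on few reads.

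Among 12 transcription factors of granulopoiesis, 9 were tested. Cebpe, which encodes the factor that drives specific granule genes, had 809, 588 and 588 reads in bone marrow, 2, 7 and 30 in blood and 20, 43 and 74 in tumor. It fell from bone marrow to blood (log2 fold change -5.97 ± 0.82, limma adjusted p = 0.000899) and from bone marrow to tumor (-4.21 ± 0.82, adjusted p = 0.00318), and the log2 difference of tumor from blood, 1.76 ± 0.82, did not pass (limma adjusted p = 0.0965). Irf8, a factor of the monocyte branch, was lower in tumor than in bone marrow and blood (log2 fold changes -3.17 ± 0.37 and -1.56 ± 0.37, limma adjusted p = 0.000227 and 0.0071). Cebpg was higher in blood than in bone marrow (1.11 ± 0.18, limma adjusted p = 0.00175). In all, 5 of the 9 were lower in tumor than in bone marrow and 0 higher, beside 32.9% and 22.4% of all genes tested. Against blood 5 were lower and 1 higher, beside 34.5% and 28.1% of all genes. The higher one was Klf5, named after its values were seen (1.83 ± 0.40, limma adjusted p = 0.00462).

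Receptors and partners of the member proteins were mostly too low to test, with 4 of 11 passing the filter. Itgam and Itgb2, the chains of Mac-1, and Fpr2, a receptor for CRAMP, had lower levels in tumor than in blood (log2 fold changes -0.96 ± 0.16, -2.03 ± 0.10 and -1.13 ± 0.24, limma adjusted p = 0.00111, 3.32e-06 and 0.00411) and also than in bone marrow. The remaining gene, Hmox1, heme oxygenase 1, which acts on heme after hemoglobin is taken up and was named after its values were seen, was higher in tumor than in blood (0.83 ± 0.20, limma adjusted p = 0.00698) and than in bone marrow (1.56 ± 0.20, adjusted p = 0.000334). Hp and Hmox1 thus moved in opposite directions in tumor. Of 21 paralogs of the members, 20 were found in the table and 8 were tested. In tumor against bone marrow 6 of them were lower and 2 higher, beside 32.9% and 22.4% of all genes. Chil1 and Chil5, relatives of Chil3, had lower levels in tumor than in blood (-2.16 ± 0.13 and -1.67 ± 0.25, limma adjusted p = 7.75e-06 and 0.000657), a comparison in which Chil3 itself was not called. Orm2, a lipocalin like Lcn2, had 19 to 22 reads per bone marrow library, 44 to 64 per blood library and 3 to 6 per tumor library.

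Correlations of log2 FPKM over the 9 libraries describe how alike the patterns were; these points share 3 compartments, so the values mostly reflect compartment means and carry no test. Camp and Ngp were the closest pair (Pearson's r = 0.999), with Ltf at 0.993 to each. Hp was the least like the rest, at 0.113 to Ltf and 0.728 to Lcn2. Outside the members, the gene most like Ltf was Zmpste24, a prenyl-protein protease (r = 0.998), followed by Slc25a24 and Olfml2b. Those most like Camp were Eif4e3, Zmpste24 and Serpinb1a, and those most like Ngp were Zmpste24, Eif4e3 and Dstn, so Zmpste24 appeared for all 3. For Lcn2 they were Hmgn2 (r = 0.995), B230208H11Rik and Lyz2, for Chil3 Scamp1 (r = 0.983), Cebpe and Ankrd9, for Cd177 Itgb2l (r = 0.997), Arhgap19 and Adpgk, and for Hp Abtb1 (r = 0.999), Cdkn2d and I830077J02Rik.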

How the data were processed

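RNA from sorted neutrophils was made into SMARTSeq v2 libraries, which do not keep strand, and sequenced as paired reads. Per the submitters' processing notes the tools were STAR (2.5.2b), featureCounts (1.5.0) and edgeR (3.8.6), on mouse build GRCm38. The authors deposited log2 FPKM per gene, scaled by their own library factors. Low values sit on steps of 1 read, from which whole reads were recovered for 46517 of 46517 genes (tolerance 0.01). The FPKM length was the genomic span for 39046 of 46005 gene IDs found in GENCODE M21, which supplied coordinates.

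The 7794 genes whose log2 FPKM exceeded 0 in 3 or more libraries were fitted with limma 3.58.1 (R 4.3.3; lmFit, eBayes with trend) over all 9 libraries, with Benjamini-Hochberg adjustment over all genes tested and a threshold of 0.05. The study's methods name limma with voom on counts, so voom on the recovered reads was run as an alternative. Shares and ratios, 1 value per library, were tested with exact two-sided permutation tests (scipy 1.17.1). The fit was tested on simulated data. Members and gene lists were chosen with earlier results of these data known. Named genes are the members, the 3 genes of lowest adjusted p per list, and the 3 most correlated with each member. Others were named after their values were seen, Slc11a1 and Il1b among them, as examples of a list, or, for Chil4, for its likeness to Chil3. Promoters came from RefSeq, which matched 6 of 7 members and had no entry for Hp. Further lists of marker genes (acinar, fibroblast, endothelium, lymphocyte, erythroid, platelet, eosinophil and basophil) were counted by the same fit and are given at the end.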

Additional observations from a re-analysis of the deposited data

How the results depend on the processing

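Of 462 recomputed member fold changes, many of which a setting cannot move, 453 kept their direction and side of the threshold. For tumor against blood, quantile normalization and plain library totals each called 5 members higher in place of 3. Both added Chil3 (log2 fold change 1.27 and 1.26, limma adjusted p = 0.0276 and 0.0319) and Cd177 (0.76 and 0.69, adjusted p = 0.00467 and 0.00804). Leaving out blood replicate 3 called 4, adding Chil3. Why quantile normalization added Chil3 and Cd177 was not tested. Over all its alternatives the adjusted p ranged from 0.0276 to 0.486 for Chil3 and from 0.00467 to 0.698 for Cd177. Plain totals moved every gene by the same amount, 0.45 in both comparisons with tumor. They turned the 2194 higher and 2686 lower calls of tumor against blood into 2923 and 1898, and the 1745 and 2566 of tumor against bone marrow into 2601 and 1634. Quantile normalization gave 2183 higher and 2757 lower calls of tumor against blood, and moved the median of all genes by -0.062. The difference of Hp between blood and bone marrow, not called in any setting, changed sign to -0.033 with quantile normalization, to -0.03 without bone marrow replicate 3 and to -0.049 without blood replicate 2, and ranged from -0.049 to 0.072 with 1 library left out. The share of summed FPKM on the members was lower in tumor than in blood by -0.292 percentage points, against 0.410 higher for reads. Tumor against blood log2 fold changes stayed within 2.20 to 2.82 for Ltf, 1.64 to 2.46 for Camp, 1.44 to 2.16 for Ngp, -1.57 to -0.84 for Lcn2 and -2.63 to -2.12 for Hp over all alternatives.

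Counts over all genes depended on which genes were tested: 7794 in the fit reported, 46517 with no filter, 3514 with the stricter filter (log2 FPKM over 2) and 17714 with voom, which changed both the tool and the filter. Tumor against blood, with 2194 higher and 2686 lower, had 4611 and 2921 with no filter, 918 and 1644 with the stricter filter and 5871 and 3888 with voom. Tumor against bone marrow, with 1745 and 2566, had 3396 and 2574, 849 and 1529, and 5192 and 3722, so that no filter and voom turned the balance to higher calls in both. Blood against bone marrow, with 1605 and 1841, had 1036 and 888 with the stricter filter, 2449 and 2912 with voom, and 968 and 1208 with a log2 fold change of at least 1.

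The study describes the compartments as taken from the same mice, but no source used here ties the replicate numbers to shared pools, so they were not treated as pairing the libraries. Correlations of deviations between libraries of the same number ran from -0.071 to 0.108, and not every library correlated best with its own number. With the replicate number as a block, 4 members were higher in tumor than in blood, Chil3 being added (0.81, limma adjusted p = 0.0338), and the block changed no other member's call.

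The main limits are the 3 pools per compartment, the different Ly6G labels of bone marrow and the other compartments, and the non-neutrophil RNA in the tumor libraries. Camp in blood rests on 88 to 99 reads per library.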

Other observations

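The other marker lists gave these summed levels, in RPM. Beside the counts given with them, 28.1% of all genes tested were higher in tumor than in blood. Against bone marrow, 22.4% were higher and 32.9% lower in tumor, and 20.6% were higher in blood. Acinar markers were at 1.27 to 5.04 for bone marrow, 2.51 to 7.32 for blood and 530 to 2301 for tumor, where 6 of 6 tested were higher than in both others. Fibroblast markers were at 3.65 to 7.96, 0.180 to 4.39 and 1098 to 1352, with 5 of 5 tested higher in tumor. Platelet markers were at 6.89 to 11.2 for bone marrow, 441 to 601 for blood and 3.86 to 9.90 for tumor, and erythroid markers at 26.8 to 56.7, 245 to 471 and 12.9 to 139, and 5 of 5 tested of each list were higher in blood than in bone marrow. Lymphocyte markers were at 27.7 to 50.9, 63.8 to 113 and 7.34 to 13.8, and endothelium markers, none of which passed the filter, at 10.1 to 16.7, 31.7 to 36.3 and 82.4 to 124. Pecam1, also in the list of partners of the member proteins, made up most of the endothelium sum in every compartment. It had 138, 235 and 169 reads in the blood libraries and 421, 742 and 381 in the tumor libraries. Eosinophil and basophil markers were at 67.5 to 105, 95.9 to 128 and 172 to 243, with Epx at 0 in blood and tumor. Siglecf, with 1001, 1691 and 1115 reads in the tumor libraries, made up nearly all of the tumor sum, the other 5 genes having 0 to 3 reads per tumor library, and tumor against bone marrow gave 3 of the 4 tested lower and 1 higher. The part of these cells in the levels of the specific granule genes was not tested.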
